A study of Homo sapiens with 8 samples.

Results

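The human HOX cluster genes were followed across a pair of ovarian cancer cell lines and a histone deacetylase inhibitor. They were taken as every gene symbol of the deposited count table made of HOX, a cluster letter from A to D and a position number, which gave 39 of 25369 named genes: 11 in HOXA, 10 in HOXB, 9 in HOXC and 9 in HOXD. Poly(A) RNA was sequenced in 8 libraries that form 4 groups of 2. BRCA1-null cells were the ovarian cancer line UWB1.289, which carries an inactivating BRCA1 mutation, and BRCA1+ cells were UWB1.289 transduced with wild-type BRCA1. Each line received the DMSO vehicle (control) or 0.5 uM entinostat, an inhibitor of class I histone deacetylases, for 24 h. The BRCA1+ line is 1 derivative, so effects of BRCA1 cannot be told apart from those of transduction, selection and separate passage. The labels do not say that replicates came from separate cultures, and p-values therefore measure only the spread between these libraries.

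HOX genes encode homeodomain transcription factors that give cells their position along the head-to-tail axis. They lie in clusters on 4 chromosomes, and genes at the same place in each cluster descend from a common ancestor and are called a paralog group. Genes with low numbers (anterior) lie at one end of a cluster and those with high numbers (posterior) at the other, and in the embryo the order along the chromosome follows the order of expression along the body. Their proteins bind DNA with TALE cofactors such as PBX and MEIS, Polycomb complexes keep unused clusters silent, trithorax complexes keep used ones active, and retinoic acid switches on anterior members. In the female reproductive tract, HOXA9, HOXA10, HOXA11 and HOXA13 mark in turn the fallopian tube, the uterus, the cervix and the upper vagina.

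The libraries held 31900158 to 53549893 counts, and HOX genes took 4812 to 7583 of them. BRCA1 had 3954 to 5473 counts in the BRCA1+ libraries and 800 to 1218 in the BRCA1-null libraries, with a log2 difference between the lines in DMSO of -2.14 ± 0.09 (SE), which fits the labels. The epithelial markers EPCAM and KRT7 and the Mullerian marker PAX8 were high in every group (group means of PAX8 of 347 to 379 CPM, the counts scaled to a common library size), whereas WT1 had 1 to 20 counts and EMX2 0 to 2 counts per library. Summed levels of markers of other cell types differed between the lines, and a sum can be carried by 1 gene. The summed level of 5 fibroblast markers was 12.9 to 17.8 CPM in BRCA1+ control and 29.8 to 44.3 CPM in BRCA1-null control libraries, that of 4 endothelial markers 9.48 to 16.2 and 36.6 to 54.3 CPM, and that of 4 immune markers 12.5 to 13.1 and 23.1 to 25.6 CPM. They also moved with entinostat: in the BRCA1+ entinostat and BRCA1-null entinostat libraries the sums were 26.4 to 34.1 and 40.9 to 59.6 CPM for fibroblast markers, 27.3 to 38.3 and 75.1 to 92.9 CPM for endothelial markers, and 17.3 to 18.9 and 28.4 to 35.4 CPM for immune markers. Single markers did not all follow the sums. Called higher in BRCA1-null cells in DMSO were 2 of 3 tested fibroblast, 3 of 4 endothelial and 1 of 3 immune markers. None was called lower. In entinostat 2 fibroblast, 3 endothelial and 1 immune marker were higher, and 1 fibroblast and 1 immune marker lower. Of all tested genes, 42.2% were called between the lines in DMSO and 39.4% in entinostat. Of the 5 fibroblast markers, DCN and LUM were at 0 in all 8 libraries, and the 3 tested were COL1A1, COL1A2 and PDGFRA. Of the 4 immune markers, that of T cells, CD3E, had 0 to 4 counts, and none was at 0 in all libraries. The part of these markers in the HOX differences was not tested. In bulk RNA, fewer cells that express a gene and less RNA per cell cannot be told apart.

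The clusters differed in whether they were used at all. Of the 39 genes, 34 had at least 1 count and 25 had enough counts to be tested, namely all 11 of HOXA, 6 of HOXB, 8 of HOXD and none of HOXC. The 9 HOXC genes together had 42 counts in the 8 libraries, of which 30 fell on HOXC4 and 14 of those in a single BRCA1-null entinostat library. HOXC5, HOXC10, HOXC11, HOXC12 and, in another cluster, HOXB1 had no count, and HOTAIR, the long noncoding RNA of the HOXC locus, had none either. A count of 0 allows up to 3 counts, or 0.0552 to 0.0946 CPM depending on the library, so expression below that level was not detectable. Among the other untested genes, HOXB5 had 1 to 10 counts per library, HOXB8 1 to 8 and HOXD12 0 or 1. HOXB13 had 0 counts in all BRCA1+ libraries, 1 and 1 in the BRCA1-null control and 7 and 3 in the BRCA1-null entinostat libraries, which is too few for a fold.

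Per length of transcript, the highest HOX level was that of HOXD4, with a mean over the 8 libraries of 9.92 RPKM (reads per kilobase of transcript, scaled to library size). HOXA10 followed with 6.94, HOXB7 with 5.96, HOXD1 with 5.60, HOXD8 with 4.26, HOXB4 with 4.22 and HOXD9 with 4.05 RPKM. This order is of the pooled libraries and differed between the lines: in BRCA1+ control, HOXD1 (7.28 RPKM) and HOXA9 (6.60 RPKM) stood above HOXB7 (5.65 RPKM), the libraries of HOXA9 and HOXB7 overlapping, while in BRCA1-null control HOXD1 had 3.98 and HOXA9 1.95 RPKM, both below HOXB7 at 6.26 RPKM. In the pooled means the order among the last 3 is closer than the spread between replicates of HOXD8, whose 2 BRCA1-null entinostat libraries had an SD of 1.01 RPKM around 5.45. Between HOXA4, HOXA5 and HOXA7 on the one hand and HOXA6 on the other the level dropped from 2.74, 0.996 and 3.85 RPKM to 0.399 RPKM, and in HOXB the genes HOXB4 and HOXB7 stood at 4.22 and 5.96 RPKM beside HOXB5 at 0.0408, HOXB6 at 0.282 and HOXB8 at 0.0449 RPKM. Neighbours within a cluster were thus expressed at very different levels in the same cells, and expression did not follow the order of the genes on the chromosome.

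**Figure D1:**
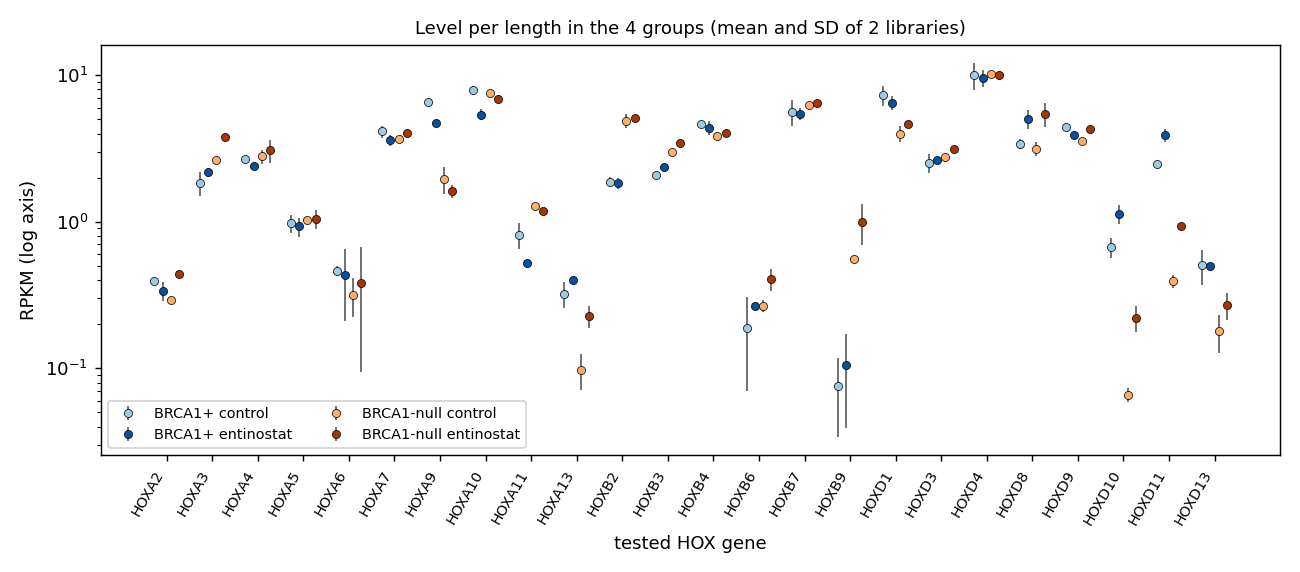
RPKM of tested HOX genes on a log axis, ordered by cluster and position, with points for the mean and bars for the SD of the 2 libraries of each group. HOXA9, HOXB2, HOXB9, HOXD10 and HOXD11 separate by line, while HOXD4 lies between 9.55 and 10.1 RPKM in all groups.

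Summed over its genes, HOXA reached 70.5 ± 2.98 CPM (SD, n = 2) in BRCA1+ control, 57.4 ± 3.11 in BRCA1+ entinostat, 61.5 ± 2.29 in BRCA1-null control and 65.9 ± 1.79 in BRCA1-null entinostat cells. HOXB was higher in the BRCA1-null line, at 37.1 ± 1.19 CPM in control and 41.5 ± 0.0559 in entinostat, against 28.3 ± 1.11 and 28.7 ± 0.446 in BRCA1+. HOXD gave 56.4 ± 6.63 CPM in BRCA1+ control, 60.8 ± 4.12 in BRCA1+ entinostat, 43.4 ± 0.378 in BRCA1-null control and 54.2 ± 3.63 in BRCA1-null entinostat. The groups of the 2 lines did not overlap in DMSO for any of these sums, with HOXA and HOXD lower and HOXB higher in BRCA1-null cells. Sums are carried by their most abundant genes, so single genes are described next.

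In DMSO, the test called 12 of the 25 tested HOX genes (48%), of which 5 had more and 7 had less RNA in BRCA1-null cells (edgeR quasi-likelihood test, adjusted p under 0.05). Over all 17714 tested genes the share was 42.2%, so HOX genes as a whole were called about as often as any gene. Limited to genes with a mean of at least 1 CPM, 9 of 19 HOX genes were called beside 46% of 14537 genes, and the median absolute log2 difference was 0.26 for HOX genes and 0.27 for all. The calls were spread unevenly over positions: 4 of 7 tested anterior genes (groups 1 to 3), 0 of 9 central genes (groups 4 to 8) and 8 of 9 posterior genes (groups 9 to 13). By cluster, the called genes of HOXD were all lower in BRCA1-null cells (5 of 8), those of HOXB all higher (3 of 6), and HOXA had 2 of each kind among 11. Of the 12 called genes, 7 differed by at least 1 on the log2 scale.

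**Figure D2:**
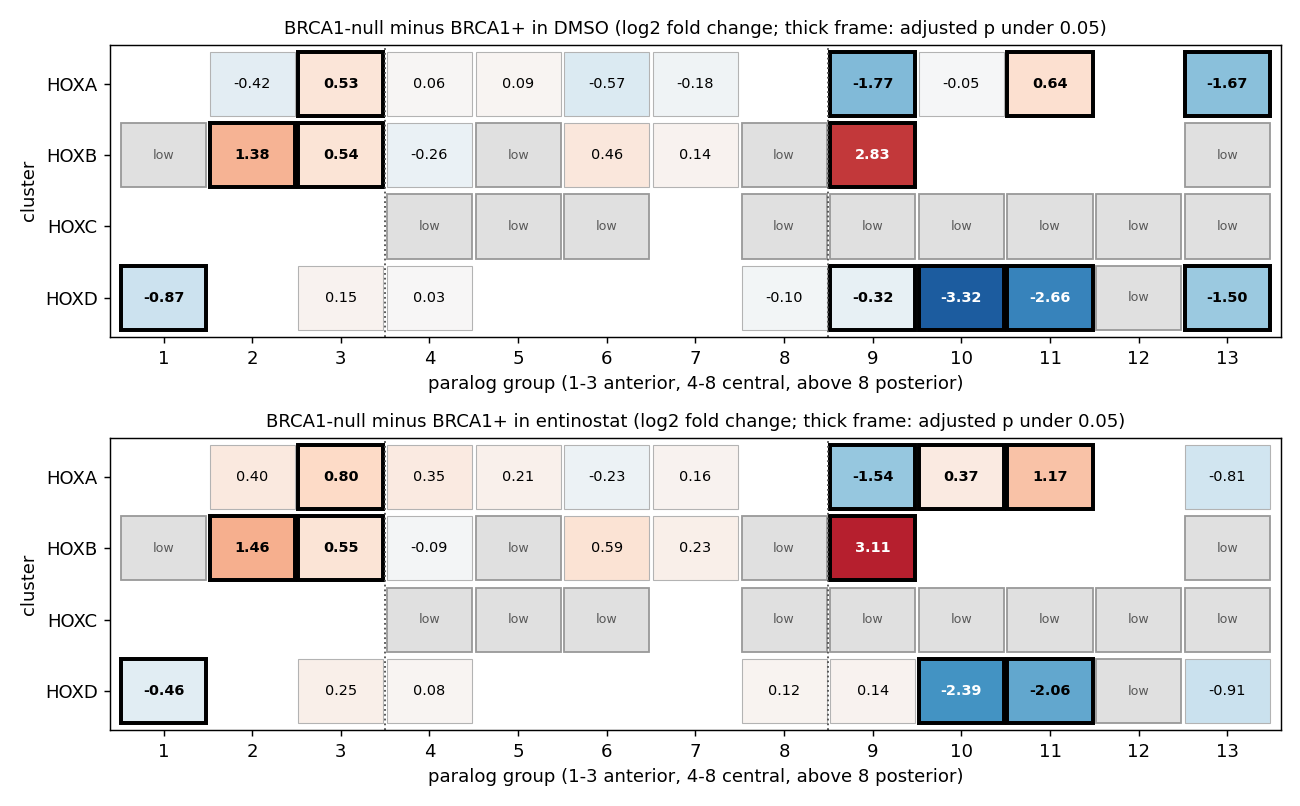
Log2 fold change of BRCA1-null over BRCA1+ in DMSO (top) and entinostat (bottom) for HOX genes, placed by cluster (rows) and paralog group (columns), with red higher and blue lower in BRCA1-null, thick frames for adjusted p under 0.05 and grey for genes too low to test. In DMSO the 8 called posterior genes lie to the right of the second dotted line and no central gene is framed.

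Among the tested HOX genes, HOXD10 and HOXD11 were lower in BRCA1-null cells by the largest amounts, and they belong to the posterior HOXD genes that pattern the limbs and the urogenital tract. HOXD11 (chr2:176972084-176974316, plus strand, hg19) had 3.50 and 3.73 CPM in BRCA1+ control and 0.615 and 0.534 CPM in BRCA1-null control libraries. The log2 difference was -2.66 ± 0.23 (SE, adjusted p = 2.97e-05), a 6.31-fold lower level in BRCA1-null cells. HOXD10, its neighbour, had 43 and 62 counts in BRCA1+ control and 5 and 7 counts in BRCA1-null control, with a log2 difference of -3.32 ± 0.41 (adjusted p = 0.000247). HOXD13, at the end of the cluster, had 56 and 44 against 23 and 18 counts and differed by -1.50 ± 0.34 (adjusted p = 0.00708). For these 3 genes the libraries of the lines did not overlap, although HOXD10 and HOXD13 rest on low counts, and the call of HOXD13 was lost without BRCA1+ control replicate 1 or BRCA1-null control replicate 2 (highest adjusted p 0.0566).

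The HOXD genes beyond HOXD10 differed less. HOXD9 had 8.53 and 8.15 CPM in BRCA1+ control and 6.46 and 6.90 in BRCA1-null control (log2 difference -0.32 ± 0.11, adjusted p = 0.0445), a call lost under 12 of 16 alternative settings. HOXD8, which lies next to it, had 9.43 and 8.41 against 7.65 and 8.94 CPM, a difference of -0.10 with a 95% interval of -0.48 to 0.29. HOXD4 (14.8 and 11.0 against 13.5 and 12.7 CPM) and HOXD3 (6.38 and 5.21 against 6.31 and 6.44 CPM) differed by 0.03 and 0.15, with intervals of -0.31 to 0.36 and -0.15 to 0.45. These 3 middle genes had overlapping libraries. HOXD1, at the far anterior end, was again lower in BRCA1-null cells, with 15.9 and 12.9 CPM in BRCA1+ control and 8.55 and 7.18 CPM in BRCA1-null control (-0.87 ± 0.14, adjusted p = 0.00117). HOXD1 shares 380 bases with the noncoding RNA HAGLR on the other strand, which was also lower (-0.52 ± 0.07), and since the use of strand in counting is not given in the sources used here, their reads there cannot be told apart.

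The start regions of 3 posterior genes that were lower in BRCA1-null cells are printed to show the sequence from which these genes are read. Each is the 250 bases before the start of the gene model in the deposited table, on hg19, written 5′ to 3′ along the gene, and capitals mark matches on either strand to TATAAA (the box bound by the general transcription machinery), to TGATNNAT (the motif of HOX with PBX proteins), to TAATTA (the homeodomain motif) and to CCAAT. The model starts lay 76 bases (HOXD11), 14 (HOXD10) and 4 bases (HOXA9) from the nearest GENCODE transcript start.
HOXD11: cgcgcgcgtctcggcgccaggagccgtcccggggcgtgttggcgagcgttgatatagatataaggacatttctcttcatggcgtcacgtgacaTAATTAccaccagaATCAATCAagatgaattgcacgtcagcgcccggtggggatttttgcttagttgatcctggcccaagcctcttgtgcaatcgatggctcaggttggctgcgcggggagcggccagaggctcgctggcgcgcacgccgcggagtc
HOXD10: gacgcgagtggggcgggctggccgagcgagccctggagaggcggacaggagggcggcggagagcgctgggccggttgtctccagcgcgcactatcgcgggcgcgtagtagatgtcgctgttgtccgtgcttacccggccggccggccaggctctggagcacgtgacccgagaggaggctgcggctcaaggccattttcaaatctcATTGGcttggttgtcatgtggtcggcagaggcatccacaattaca
HOXA9: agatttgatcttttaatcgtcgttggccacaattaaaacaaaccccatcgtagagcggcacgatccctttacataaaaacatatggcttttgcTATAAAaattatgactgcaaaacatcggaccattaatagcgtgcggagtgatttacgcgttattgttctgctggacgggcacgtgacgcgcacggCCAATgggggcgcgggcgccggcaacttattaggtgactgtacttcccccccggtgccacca
The regions are chr2:176971834-176972083 (HOXD11) and chr2:176981242-176981491 (HOXD10) on the plus strand and chr7:27205150-27205399 (HOXA9) on the minus strand. TGATNNAT stood in the region of HOXD11 and in 9 of 25 regions of HOX genes with at least 100 counts in total (36%), beside 4.16% of the regions of all 16752 genes past the same minimum. CCAAT stood in 18 of these HOX regions (72%) and 32.3% of all, TATAAA in 5 (20%) and 6.75%, and TAATTA in 1 (4%) and 2.7%. The HOX regions include that of HOXA3, whose model start lay 7425 bases from the nearest GENCODE transcript start. Of the genes shown, TATAAA was found for HOXA9. A match is a description of the letters, not a bound site.

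Posterior HOXA genes, those of the reproductive tract series, went different ways within a short stretch of chromosome 7. HOXA9 (chr7:27202057-27205149, minus strand) had 14.0 and 13.1 CPM in BRCA1+ control and 4.59 and 3.42 CPM in BRCA1-null control, a log2 difference of -1.77 ± 0.15 (adjusted p = 2.38e-05). Its neighbour HOXA10, the most abundant HOX transcript by count, had 26.4 and 23.7 against 24.9 and 23.5 CPM and did not pass the test, with an interval of the difference of -0.26 to 0.16. HOXA11 was higher in BRCA1-null cells, at 3.36 and 3.46 CPM against 1.85 and 2.48 (0.64 ± 0.18, adjusted p = 0.0197). HOXA13, at the end of the cluster, had 9 and 16 counts in BRCA1-null control against 37 and 32 in BRCA1+ control (-1.67 ± 0.37, adjusted p = 0.0058). Lower HOXA9 and HOXA13 thus stood on either side of a higher HOXA11 and of HOXA10, for which no difference was detected. The call of HOXA11 was lost in the DESeq2 Wald test and without BRCA1+ control replicate 1 or BRCA1-null control replicate 2 (highest adjusted p 0.128).

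Overlapping models limit these values. HOXA9 and HOXA10 lie inside the model of the readthrough transcript HOXA10-HOXA9, whose own count gave -1.86 ± 0.15, close to HOXA9. How reads in the shared exons were divided is not given in the sources used here. HOXA11-AS, the antisense RNA beside HOXA11, was also higher in BRCA1-null cells (1.12 ± 0.22), as was the noncoding RNA HOTAIRM1 of the same cluster (0.87 ± 0.17).

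HOXB genes were higher in BRCA1-null cells where they differed. HOXB9, the most posterior HOXB gene with a testable level, had 5 and 13 counts in BRCA1+ control and 70 and 81 counts in BRCA1-null control, or 0.125 and 0.283 against 1.54 and 1.49 CPM (2.83 ± 0.50, adjusted p = 0.00176). It is the only called posterior gene besides HOXA11 that was higher in BRCA1-null cells. At the anterior end, HOXB2, which patterns the hindbrain, had 8.42 and 7.23 CPM in BRCA1-null control against 3.15 and 2.83 in BRCA1+ control (1.38 ± 0.15, adjusted p = 0.000103), and HOXB3 11.1 and 10.7 against 7.78 and 7.21 CPM (0.54 ± 0.10, adjusted p = 0.00285). The antisense RNA HOXB-AS1, which overlaps both, was higher by 1.16 ± 0.23. It shares 681 bases with HOXB2 and 2372 with HOXB3 on the other strand, and reads there cannot be told apart either. HOXB4, known from blood stem cells, and HOXB7 were not called. HOXB4 had 7.54 and 8.04 CPM in BRCA1-null and 9.58 and 9.17 in BRCA1+ control (-0.26 ± 0.11, adjusted p = 0.0939), and HOXB7 had 8.83 and 8.28 against 6.63 and 8.80 CPM (0.14, interval -0.19 to 0.46).

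Anterior and central HOXA genes changed little between the lines. HOXA3 was the exception, with 9.05 and 9.35 CPM in BRCA1-null control against 7.28 and 5.58 in BRCA1+ control (0.53 ± 0.14, adjusted p = 0.0131), a call lost without BRCA1+ control replicate 2 or BRCA1-null control replicate 2 (highest adjusted p 0.111). HOXA4 had 4.44 and 5.21 against 4.65 and 4.64 CPM (0.06, interval -0.31 to 0.43), HOXA5 1.65 and 1.77 against 1.78 and 1.46 CPM (0.09, interval -0.41 to 0.59), and HOXA7 7.45 and 7.29 against 7.75 and 8.89 CPM (-0.18, interval -0.46 to 0.10). None of these 3 was called. HOXA2, HOXA6 and HOXB6 had 23 to 32, 11 to 18 and 7 to 26 counts in the control libraries and were not called, so only large differences could have been seen. The uneven count over positions rests in part on single libraries. Fewer posterior genes were called without BRCA1+ control replicate 1 or without BRCA1-null control replicate 2, and so were fewer of all tested genes. No central gene was called in any setting tried.

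**Figure D3:**
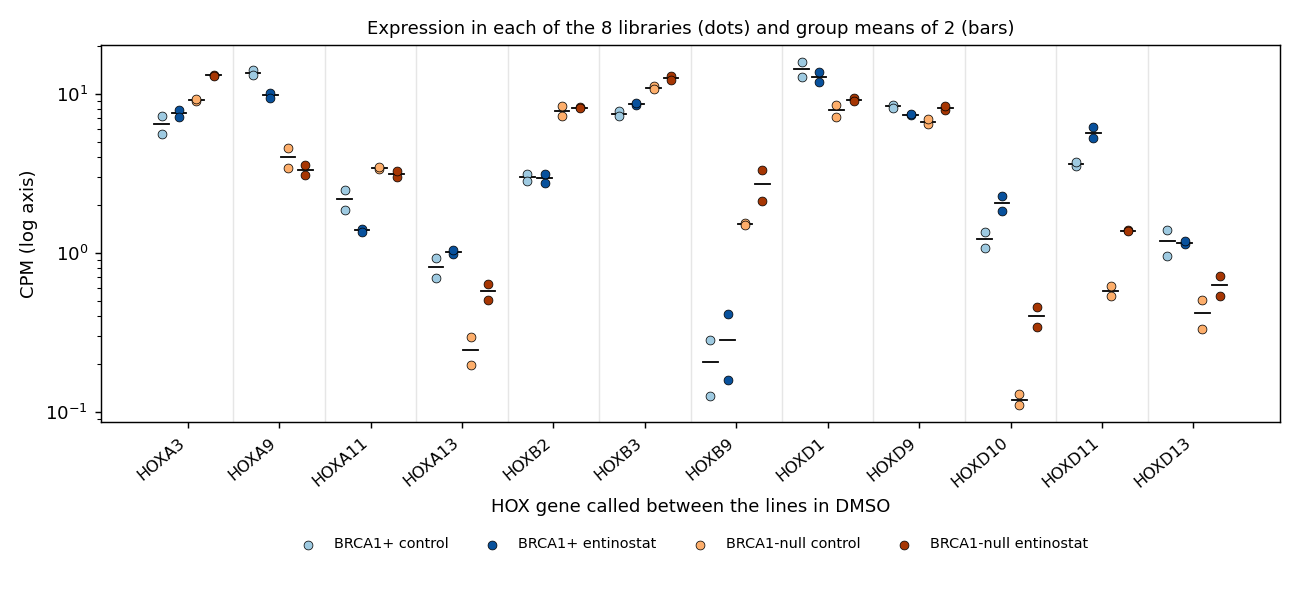
CPM on a log axis in each of the 8 libraries (dots) for the 12 HOX genes called between the lines in DMSO, with group means as bars. HOXD10, HOXD11, HOXA9, HOXB2 and HOXB9 show gaps between the lines that are wider than the spread of replicates in both treatments.

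In entinostat the lines differed for 10 of 25 HOX genes (40%), 6 higher and 4 lower in BRCA1-null cells, beside 39.4% of all tested genes. The 2 comparisons of lines use different libraries. HOXD10 (-2.39 ± 0.29), HOXD11 (-2.06 ± 0.18), HOXA9 (-1.54 ± 0.16) and HOXD1 (-0.46 ± 0.15, adjusted p = 0.0321) were lower. HOXB9 (3.11 ± 0.42), HOXB2 (1.46 ± 0.15), HOXA11 (1.17 ± 0.22), HOXA3 (0.80 ± 0.13), HOXB3 (0.55 ± 0.10) and HOXA10 (0.37 ± 0.10, adjusted p = 0.0165) were higher. HOXA10 had 21.1 and 23.0 CPM in BRCA1-null entinostat and 18.2 and 16.1 in BRCA1+ entinostat libraries, and its call was lost without BRCA1+ entinostat replicate 2 or BRCA1-null entinostat replicate 2. That of HOXD1 was lost without BRCA1+ entinostat replicate 1 or either BRCA1-null entinostat library. HOXA13 (-0.81, adjusted p = 0.0603) and HOXD13 (-0.91, adjusted p = 0.0547) missed the threshold, and HOXD9 gave 0.14 with an interval of -0.12 to 0.39.

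For entinostat itself, HOX genes were called about as often as any gene. In BRCA1+ cells 3 of 25 were called (12%), beside 14.1% of all genes: HOXD11 rose, and HOXA10 and HOXA9 fell. In BRCA1-null cells 3 of 25 were called (12%), beside 10.8% of all genes, and HOXD11, HOXD8 and HOXA3 rose. Averaged over both lines 7 of 25 were called (28%), beside 26.1% of all genes, with 5 higher and 2 lower. The higher ones were HOXA3, HOXA13, HOXD8, HOXD10 and HOXD11 and the lower ones HOXA9 and HOXA10.

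HOXD11 had 3.50 and 3.73 CPM in BRCA1+ control and 5.27 and 6.14 in BRCA1+ entinostat (0.67 ± 0.15, adjusted p = 0.0194), and 0.615 and 0.534 against 1.39 and 1.36 CPM in BRCA1-null cells (1.26 ± 0.28, adjusted p = 0.0245). In both lines entinostat libraries lay above control libraries, and BRCA1-null entinostat cells stayed under the level of BRCA1+ control cells. HOXD8 had 14.7 and 11.9 CPM in BRCA1+ entinostat (0.56 ± 0.17, adjusted p = 0.0551) and 12.5 and 16.2 CPM in BRCA1-null entinostat (0.78 ± 0.16, adjusted p = 0.0187). HOXD10 had 58 and 105 counts in BRCA1+ entinostat (0.77 ± 0.23, adjusted p = 0.0547) and 16 and 19 counts in BRCA1-null entinostat (1.69 ± 0.54, adjusted p = 0.079). Averaged over the lines, HOXD10 rose by 1.23 ± 0.29 (adjusted p = 0.0143), HOXD11 by 0.97 ± 0.16 (adjusted p = 0.0027) and HOXD8 by 0.67 ± 0.12 (adjusted p = 0.00349). HOXD9, which lies between HOXD8 and HOXD10, had 7.32 and 7.46 CPM in BRCA1+ entinostat and 7.93 and 8.33 in BRCA1-null entinostat, with an averaged difference of 0.05 and an interval of -0.12 to 0.23. HOXD4 (13.5 and 11.2, then 12.4 and 13.7 CPM), HOXD3 (6.18 and 5.91, then 7.23 and 7.09 CPM) and HOXD1 (13.75 and 11.8, then 9.43 and 8.95 CPM, BRCA1+ first) were not called for entinostat in either line.

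Both HOXA9 and HOXA10 fell in BRCA1+ cells. HOXA10 went from 26.4 and 23.7 to 18.2 and 16.1 CPM (-0.56 ± 0.10, adjusted p = 0.00822) and HOXA9 from 14.0 and 13.1 to 10.2 and 9.40 CPM (-0.48 ± 0.13, adjusted p = 0.0417). In BRCA1-null cells HOXA10 went from 24.9 and 23.5 to 21.1 and 23.0 CPM and HOXA9 from 4.59 and 3.42 to 3.56 and 3.09 CPM, with differences of -0.13 (interval -0.35 to 0.08) and -0.25 (interval -0.66 to 0.16), neither called. The antisense RNA HOXA10-AS and the readthrough HOXA10-HOXA9 fell in BRCA1+ cells as well, by 0.54 ± 0.13 and 0.48 ± 0.14 on the log2 scale. HOXA10-AS shares 1325 bases with HOXA10 on the other strand, and the readthrough overlaps both genes. The use of strand and the division of shared reads are not given, so these falls may rest on the same reads. HOXA11 had 1.42 and 1.36 CPM in BRCA1+ entinostat (-0.66 ± 0.23, adjusted p = 0.0952) and 3.01 and 3.26 in BRCA1-null entinostat. HOXA13 was called only in the average of the lines (0.76 ± 0.24, adjusted p = 0.0473). HOXA3 rose in BRCA1-null cells from 9.05 and 9.35 to 13.2 and 12.98 CPM (0.51 ± 0.12, adjusted p = 0.0332), and had 7.95 and 7.16 CPM in BRCA1+ entinostat (0.23, interval -0.10 to 0.56).

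Further genes with at least 1 CPM were not called for entinostat in either line. Their values in BRCA1+ entinostat and then BRCA1-null entinostat libraries were 4.35 and 4.01, then 4.65 and 5.96 CPM for HOXA4. HOXA5 had 1.70 and 1.38, then 1.92 and 1.56 CPM, and HOXA7 had 6.81 and 7.65, then 7.76 and 8.50 CPM. Among HOXB genes, HOXB2 had 2.74 and 3.13, then 8.23 and 8.09 CPM, HOXB3 8.45 and 8.71, then 12.9 and 12.2 CPM, HOXB4 9.56 and 8.21, then 8.40 and 8.09 CPM, and HOXB7 6.97 and 7.98, then 8.85 and 8.79 CPM. For the HOXB genes of this group the 95% intervals of the effects lay between -0.43 (HOXB2 in BRCA1+) and 0.45 (HOXB3 in BRCA1+). HOXB9 had 5 and 19 counts in BRCA1+ entinostat and 99 and 138 counts in BRCA1-null entinostat, the latter a difference of 0.82 ± 0.27 (adjusted p = 0.0876).

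These entinostat calls are the least firm of the set. Leaving out a library can leave 1 library in a compared group. Fewer HOX genes were then called for entinostat in some fits, and fewer of all tested genes in each fit. Over the 16 alternatives the HOXD11 effect was 0.54 to 0.77 in BRCA1+ and 1.16 to 1.34 in BRCA1-null cells. The call of HOXA9 in BRCA1+ cells was lost under 9 of 16 alternatives. In the average over lines HOXA10, HOXD8 and HOXD11 passed under all 15 alternatives other than the added fold threshold, HOXA13 was lost under 10 of 14, and HOXD10 was lost without BRCA1-null entinostat replicate 2.

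**Figure D4:**
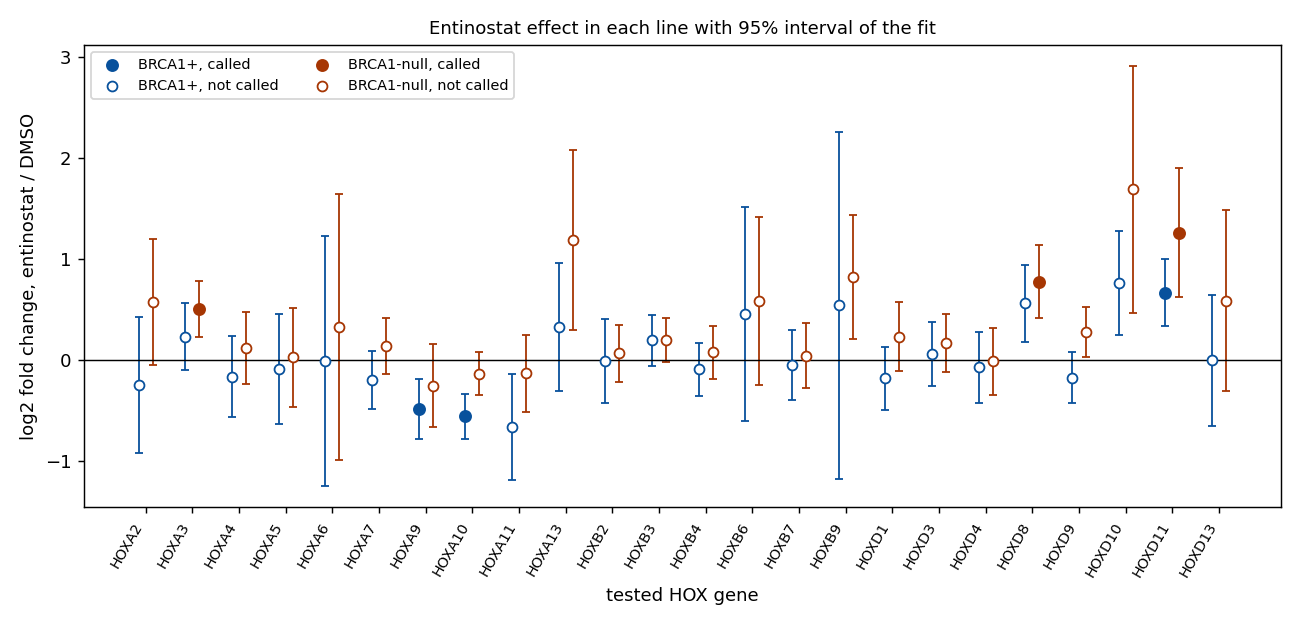
Log2 fold change of entinostat over DMSO for tested HOX genes in BRCA1+ (blue) and BRCA1-null (brown) cells, with 95% intervals of the fit and filled points for called genes. HOXD8, HOXD10 and HOXD11 lie above 0 in both lines, and HOXA9 and HOXA10 are called below 0 in BRCA1+ cells.

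Whether the lines responded differently was tested as an interaction, the entinostat effect in BRCA1-null minus that in BRCA1+ cells. No HOX gene passed, as did none of the 17714 genes (0%, smallest adjusted p 0.66). At an unadjusted p under 0.05 there were 827 genes, among them HOXA10 (0.42 ± 0.14) and HOXD9 (0.45 ± 0.16), each with an edgeR adjusted p of 0.967, and the DESeq2 Wald test called 11 genes, none a HOX gene. The estimate was above 0 for all 25 tested HOX genes, with a median of 0.28, beside 56.2% of all genes and a median of 0.027. It was above 0 for 20 of 25 without BRCA1+ control replicate 1 or BRCA1+ entinostat replicate 1. The estimates of all members come from the same 8 libraries, so their common sign is a description and no test was made of it. HOXA9 had an entinostat estimate below 0 in both lines and was called only in BRCA1+ cells. A difference between the lines in this effect was therefore not shown (0.23, interval -0.28 to 0.74).

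The TALE cofactors, the DNA-binding partners of HOX proteins, were measured alongside. Among the genes called in DMSO, PBX4 (-1.09 ± 0.23) was lower and TGIF2 (0.53 ± 0.11) higher in BRCA1-null cells. In the average over lines, entinostat raised MEIS3, PBX4 and PBX3, among others, by 0.74 ± 0.20, 0.59 ± 0.15 and 0.30 ± 0.08.

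Chromatin regulators of the clusters differed by small amounts. Of 25 Polycomb genes, 3 were higher and 5 lower in BRCA1-null cells in DMSO, the largest being CBX2 (0.41 ± 0.13) and MTF2 (-0.50 ± 0.06), and the core genes EZH2, EED and SUZ12 were not called. Entinostat raised CBX6 by 0.58 ± 0.08 in both lines and lowered PHF19 (-0.58 ± 0.08 in BRCA1+, -0.53 ± 0.08 in BRCA1-null), with 1 higher and 4 lower in BRCA1+ and 2 higher and 2 lower in BRCA1-null cells. Of 14 trithorax genes and H3K27 demethylases, 1 was higher, KDM6A (0.44 ± 0.09), and 2 were lower, KMT2A (-0.31 ± 0.09) and DPY30 (-0.26 ± 0.07), in BRCA1-null cells in DMSO. With entinostat 4 were lower in each line, among them WDR5 (-0.49 ± 0.06 in BRCA1+ and -0.27 ± 0.06 in BRCA1-null) and KMT2D (-0.39 ± 0.08 and -0.35 ± 0.08). Over all tested genes, the shares with entinostat were 8.13% higher and 6% lower in BRCA1+, and 7.57% and 3.19% in BRCA1-null cells.

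Among 13 tested genes of retinoic acid signalling, RXRA (1.41 ± 0.09), ALDH1A3 (1.12 ± 0.09) and RARA (0.75 ± 0.09) were higher and ALDH1A2 (-1.84 ± 0.55) and CRABP1 (-1.60 ± 0.53) lower in BRCA1-null cells in DMSO. ALDH1A2 and CRABP1 rest on low counts, with 7 to 13 and 3 to 6 in the BRCA1-null control libraries. Entinostat raised CRABP2, a retinoic acid binding protein, by 2.42 ± 0.40 in BRCA1+ and 2.22 ± 0.30 in BRCA1-null cells. Of 12 tested homeobox genes from outside the clusters, 3 were higher, led by MEOX1 (1.20 ± 0.11), and 6 lower, led by DLX3 (-3.17 ± 0.54), CDX2 (-2.92 ± 0.57) and EN1 (-2.10 ± 0.59), in BRCA1-null cells. DLX3, CDX2 and EN1 had low counts, with 4, 3 to 6 and 2 to 7 per BRCA1-null control library. In BRCA1+ control libraries they had 29 to 35, 27 to 33 and 17 counts. Of 10 tested noncoding RNAs of the HOX loci, 3 were higher and 2 lower, as given beside their neighbours. The shares over all tested genes in DMSO were 21.1% higher and 21% lower.

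The genes around each cluster were counted in the same way. Within 5 Mb of HOXD, 9 of 57 tested genes outside the cluster were higher and 18 lower in BRCA1-null cells in DMSO, with a median log2 difference of -0.20. Within 5 Mb of HOXB, 44 of 129 were higher and 19 lower (median 0.18), and around HOXA 23 of 63 were higher and 8 lower (median 0.16). Around the silent HOXC cluster, 41 of 213 were higher and 41 lower (median 0.013). Over all 17714 tested genes 21.1% were called higher and 21% lower, and the median was 0.012. The called genes around HOXD were mostly lower and those around HOXA and HOXB mostly higher in BRCA1-null cells, and the part of these surroundings in the HOX differences was not tested.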

How the data were processed

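Raw read counts per gene were used as the authors deposited them, in one table of 8 libraries. To make it, the authors used TopHat for alignment (build hg19) and NGSUtils for counting per symbol, and the treatment of strand and multiply mapped reads is not given in the sources used here. An entry without a name had 0 counts. CPM and RPKM were computed here from these counts with TMM library sizes and the gene lengths of the table.

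edgeR 4.0.16 (R 4.3.3) tested 17714 genes that passed filterByExpr, in one quasi-likelihood fit of a mean per group without covariates. A gene was called at a Benjamini-Hochberg adjusted p under 0.05 over all tested genes (two-sided), and errors are standard errors unless named SD. HOX genes with a mean of at least 1 CPM are given in full apart from values not reported here, others by counts, and of each other list the called genes with the largest differences. The members and lists were chosen with earlier results of these data known. Alternatives were other scalings (DESeq2 1.42.0 size factors, upper quartile), filters and tests, a replicate block, a fold threshold and the omission of each library. Totals of 31900158 to 53549893 counts set the precision, and floors cover counting error only.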

Additional observations from a re-analysis of the deposited data

Results flagged for a closer look

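For 3 HOX genes the entinostat libraries lay on opposite sides of the control libraries in the 2 lines, and the lines were ordered one way in DMSO and the other way in entinostat. The difference between the entinostat effects (BRCA1-null minus BRCA1+, log2) was 0.82 ± 0.41 for HOXA2, 0.34 ± 0.18 for HOXA7 and 0.45 ± 0.16 for HOXD9. None passed the edgeR quasi-likelihood test of this difference (adjusted p = 0.967 for each). The share of all tested genes with such orders was not counted, and with 2 libraries per group the spread alone can give them. These 3 genes are therefore a description.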

How the results depend on the processing

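Leaving the fold threshold aside, 19 of 35 called differences of HOX genes were called under all alternatives and 16 were lost under at least 1. For these and the differences with an adjusted p from 0.05 to 0.1, 0 of 723 values changed sign. Smaller differences did change sign, and for entinostat in BRCA1+ 9 of 25 tested HOX genes lay above 0, against 14 with upper-quartile factors. Where a log2 difference of 1 or more in size was also required, 7 HOX genes remained called between the lines in DMSO, 6 in entinostat, 0 for entinostat in BRCA1+, 1 in BRCA1-null and 1 in the average over lines. The matching shares over all tested genes are not reported here, so these counts do not set HOX genes apart. With at least 1 CPM required in 2 libraries, 5 of 21 HOX genes were called for entinostat in BRCA1+, beside 2450 of 15070 genes. With only the groups compared in the fit, 0 of 25 were called in BRCA1-null, beside 712 of 17359 genes. Without 1 library, the counts were 8 to 11 between the lines in DMSO and in entinostat, 0 to 3 for entinostat in each line and 4 to 6 in the average over lines. The anterior, central and posterior counts were examined under the alternatives after the data were seen, and 1 anterior gene was left with the fold threshold.

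The replicate numbers did not mark a shared batch in the labels, and the deviations of same-numbered libraries from their group means correlated at 0.052 to 0.287 over the 6 pairs of groups, with 2 pairs under 0.1. With the replicate block, 5 of 25 HOX genes were called for entinostat in each line. Calls over all 17714 genes rose as well, to 4314 in BRCA1+ and 3640 in BRCA1-null cells, from 2503 and 1906 without the block. HOXA13, HOXB9 and HOXD10 had 5 to 16 counts per library in the control libraries of 1 line.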
